A study of Mus musculus with 6 samples.

Results

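The 10 genes described here encode the main heat shock chaperones of the cytosol and of the mitochondrial matrix in mouse. They are the inducible HSP70 pair Hspa1a and Hspa1b, the constitutive HSP70 gene Hspa8, the cochaperones Dnajb1 and Hsph1, the HSP90 genes Hsp90aa1 and Hsp90ab1, the small heat shock protein gene Hspb1, and the mitochondrial chaperonin pair Hspd1 and Hspe1. They were chosen by name, and all 10 were found by symbol among the 55414 Ensembl gene identifiers of the count tables. RNA sequencing of poly-A enriched RNA was available for 6 preparations of adult, untreated mouse pancreatic acinar cells, which make and secrete digestive enzymes, with 1 library each. The 3 control preparations had the genotype Pdx1Cre;Trip12+/+ and the 3 knockout preparations Pdx1Cre;Trip12fl/fl, so that both groups carried a Cre recombinase driven by Pdx1, a gene active in the progenitors of all pancreatic epithelium, and differed in whether the gene of the ubiquitin ligase TRIP12 could be deleted. The labels call the preparations biological replicates without naming animals, so p-values measure the spread between these preparations. Counts of Xist against Y-linked genes placed 2 control libraries as female and 1 as male, and all 3 knockout libraries as male.

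Heat shock chaperones such as HSP70 bind unfolded segments of other proteins and release them in cycles driven by ATP. HSP70 proteins are loaded with clients by J-domain proteins such as Dnajb1 and are emptied by nucleotide exchange factors such as the HSP110 protein Hsph1. HSP90 acts later on partly folded clients such as kinases and steroid receptors, and Hspd1 with its lid Hspe1 encloses proteins imported into mitochondria. Stress that unfolds cytosolic proteins activates the transcription factor HSF1, which binds heat shock elements, arrays of the unit GAA in alternating orientation, in the promoters of the inducible members. Hspa1a, Hspa1b, Dnajb1, Hsph1, Hspb1 and Hsp90aa1 are known as strongly inducible, whereas Hspa8 and Hsp90ab1 are known as constitutive.

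Promoter sequence is shown for the members in which a heat shock element was found, because it is the sequence that HSF1 is known to bind. RefSeq windows on build GRCm38.p6 were available for 7 of the 10 members, and those of Hspa8, Hsp90aa1 and Hsp90ab1 were not used here. Capitals mark each GAANNTTC or TTCNNGAA, that is 2 adjacent units, and the sequences run 5′ to 3′ towards the transcription start. The first pair spans the 250 bases before the start of Hspa1a (chr17:34972157-34972406, minus strand) and of Hspa1b (chr17:34959239-34959488, minus strand).
Hspa1a: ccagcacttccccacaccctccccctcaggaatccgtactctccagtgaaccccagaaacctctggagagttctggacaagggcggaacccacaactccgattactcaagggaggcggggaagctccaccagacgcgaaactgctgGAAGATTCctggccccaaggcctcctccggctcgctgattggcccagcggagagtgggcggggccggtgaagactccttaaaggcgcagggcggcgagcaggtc
Hspa1b: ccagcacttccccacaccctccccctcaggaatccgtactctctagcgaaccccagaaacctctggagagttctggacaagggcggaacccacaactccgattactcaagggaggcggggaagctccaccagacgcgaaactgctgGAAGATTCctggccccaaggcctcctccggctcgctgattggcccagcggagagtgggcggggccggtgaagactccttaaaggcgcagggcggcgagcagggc
The windows of the HSP70 pair were identical at 98.8% of 250 positions. They differed at 3 positions, written as the Hspa1a base, the position from 1 at the first printed base, and the Hspa1b base: C44T, T47C and T249G. Both held 1 element of 2 units, and no such difference lay within it. The next lines show the elements of Hspb1 (chr5:135887789-135887838, plus strand), of Hsph1 (chr5:149636351-149636380, minus strand) and of Hspe1 (chr1:55088053-55088082, plus strand).
Hspb1: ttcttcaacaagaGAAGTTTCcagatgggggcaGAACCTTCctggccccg
Hsph1: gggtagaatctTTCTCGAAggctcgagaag
Hspe1: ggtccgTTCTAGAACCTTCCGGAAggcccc
The Hspe1 element held overlapping matches to the longer motifs TTCNNGAANNTTC and GAANNTTCNNGAA, which are reverse complements of each other. Hspd1 and Hspe1 lie head to head, and the same element was found in the Hspd1 window on the other strand. An element of 2 units was present in 6 of the 7 genes with a window (85.7%), against 14.5% of the 27025 genes in the table, and the longer motif in 2 (28.6%), against 0.514%. Dnajb1 had neither in its windows, but an annotated exon of Dnajb1 covered most of the window at chr8:83608298-83608547. Only exact matches to the motifs were counted. Both motifs were searched on both strands in the 250 bases before each annotated start. In the GENCODE M21 annotation, the Hsph1 element lies within an exon of Hsph1, and the Hspe1 element within an exon of Hspd1.

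The libraries held 31019500 to 34041901 gene counts each. Levels are given as CPM, counts divided by a library size that the TMM method had normalised, with 1 count worth 0.0268 to 0.0411 CPM. Trip12 stood at 29.0, 22.3 and 26.4 CPM in control replicates 1 to 3 against 14.4, 14.7 and 13.0 CPM in those of the knockout, and fell by 0.89 on the log2 scale (SE 0.14, adjusted p 0.0256 by edgeR). These counts cover the whole gene and do not show which exons a deleted allele lacks. The 18 acinar markers, from Cpa1 and Cel to Ptf1a and Bhlha15, were all detected. They summed to 586666 to 795180 CPM in control and 489102 to 506055 CPM in knockout, without overlap. The library sizes behind these CPM carried TMM factors of 0.785 to 1.02 in control and 1.12 to 1.19 in knockout. The sums are thus not shares of gene counts, and part of their difference comes from the scaling. In bulk RNA, fewer cells of a type and less RNA per cell cannot be told apart. Leukocyte markers summed to 21.6 to 97.3 CPM in control and 18.0 to 71.3 CPM in knockout, and stromal and endothelial markers to 31.7 to 148 CPM and 42.8 to 166 CPM. Islet markers ranged from 359 to 470 CPM and from 246 to 914 CPM, duct markers from 202 to 243 CPM and from 189 to 283 CPM, adipocyte markers from 78.2 to 122 CPM and from 51.7 to 52.9 CPM with Adipoq and Lep at 0 in every library, and erythrocyte markers from 1.40 to 8.72 CPM and from 1.60 to 6.89 CPM.

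The constitutive genes dominated the chaperone messages of acinar cells. Per kilobase of exon, Hsp90ab1 had the highest level (48.6 ± 7.79 CPM per kb in control and 50.2 ± 9.49 in knockout, SD, n = 3), followed by Hspa8 (33.0 ± 12.5 and 32.8 ± 6.15). Hspb1 came next at 15.9 ± 1.55 and 14.0 ± 1.59 CPM per kb. Hspd1 (12.4 ± 0.140 and 11.8 ± 1.93) and Hspe1 (12.2 ± 1.02 and 11.6 ± 1.14), whose products work as a complex, could not be ordered, since Hspd1 was the higher of the pair in 3 of 6 libraries. Hsp90aa1 stood at 10.1 ± 0.652 and 8.89 ± 0.745 CPM per kb, below both. The cochaperones were lower, with Dnajb1 at 1.97 ± 0.348 and 1.61 ± 0.210 and Hsph1 at 0.991 ± 0.0767 and 0.661 ± 0.0884 CPM per kb. Hspa1b and Hspa1a were lowest, at 0.0853 ± 0.102 and 0.0887 ± 0.0918 CPM per kb in control and 0.456 ± 0.149 and 0.219 ± 0.225 in knockout. Per kilobase Hspa1b exceeded Hspa1a in 5 of 6 libraries, although both drew 18 reads in control replicate 1 and 1 read in control replicate 2. In these controls the order rests only on the shorter exonic length of Hspa1b (2803 against 2967 bases). Apart from these pairs, each gene lay above the next by mean level in all 6 libraries, although Hspb1 (12.3 CPM per kb) was below Hspe1 (12.4) in knockout replicate 2.

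These levels may be affected by sequence that the members share with other genes, because a read placed at several sites was not counted to any gene. In the GENCODE M21 transcripts, 56.5% of the 100-base stretches of Hspa1a and 49.9% of those of Hspa1b also lay in another gene, mostly in each other. The share was 44.0% for Hspb1, 38.0% for Hsp90aa1, 28.5% for Hspa8 and 23.9% for Hspd1. It was mainly with processed pseudogenes, copies that arose from reverse-transcribed messages. For Hspe1 the share was 11.0%, mainly with AC117239.2, which is annotated as protein-coding. Dnajb1, Hsph1 and Hsp90ab1 shared no such stretch. Read length is not given in the sources used here. Levels of these 7 may be undercounted to a degree that was not measured.

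**Figure D1:**
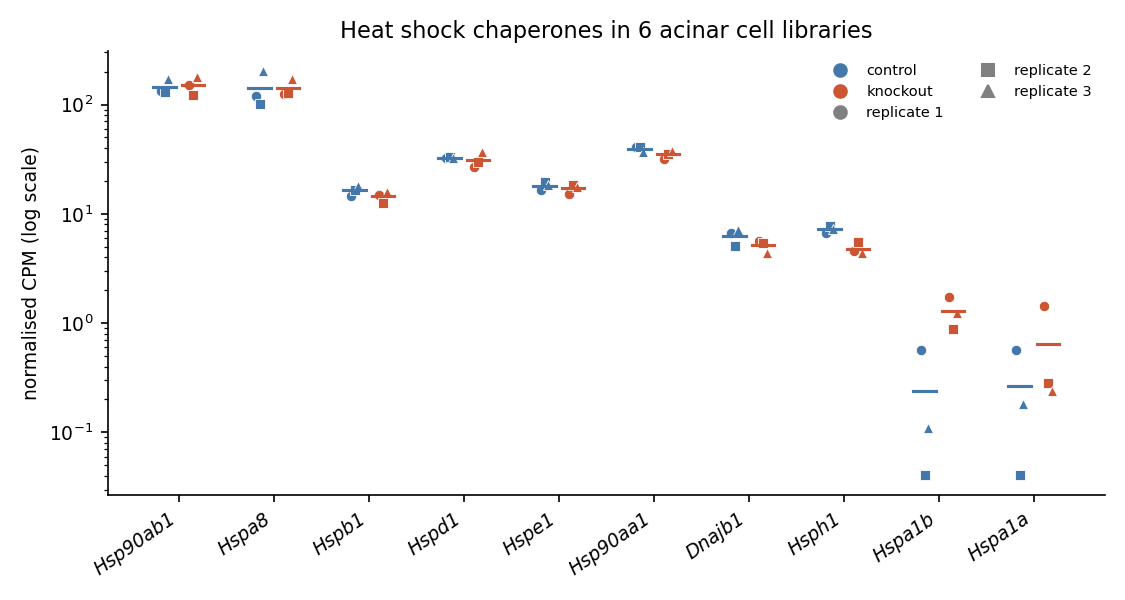
Normalised CPM (log scale) of the 10 chaperone genes in each library, ordered from left to right by level per kilobase; points are libraries (blue control, orange knockout, shape by replicate number) and bars are group means. Groups overlap in 8 genes, and the knockout libraries lie above the controls in Hspa1b and below them in Hsph1.

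No member was called when all genes were tested together. With Benjamini-Hochberg adjusted p under 0.05, the quasi-likelihood test of edgeR called 0 of the 9 members that passed its filter on low counts, against 124 of 13115 genes (0.945%). Hspa1a did not pass. DESeq2 and limma-voom also called 0 of 9. At an unadjusted p under 0.05 there were 2 of 9 members, Hspa1b and Hsph1, against 16.7% of all genes, and these were also the 2 members whose groups did not overlap, against 22.9%. The median log2 fold change was -0.08 over the 9 members and 0.02 over all genes tested. Of the 9, 7 were lower in knockout under TMM scaling, but 8 were higher with library totals, a scaling that moved the median of all genes to 0.43.

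The inducible HSP70 genes were low in every library and nearly silent in control replicates 2 and 3. In the knockouts Hspa1b was above every control. Hspa1b (ENSMUSG00000090877) drew 18, 1 and 3 reads in the controls, given here and below in the order of replicates 1 to 3, against 64, 31 and 46 in the knockouts. That is 0.567, 0.0411 and 0.109 CPM against 1.72, 0.885 and 1.23 CPM, with every knockout library above every control. Exact 95% Poisson intervals, which cover counting error only, ran from 10.7 to 28.4 reads in control replicate 1, the highest control, and from 21.1 to 44.0 reads in knockout replicate 2, the lowest knockout. The fitted log2 fold change was 2.35 (SE 0.78, 95% interval 0.58 to 4.13) and did not pass the test (adjusted p 0.189, edgeR). A further fit took the replicate number as a block, a pairing the labels do not state but a check on these data allowed. There Hspa1b rose by 2.65 on the log2 scale (SE 0.57, adjusted p 0.0208, edgeR), as 1 of 446 genes of 13115 called higher (3.4%). In the blocked fit without replicate 2 of both groups it was not called (2.30). In the fit without the block it was called when control replicate 1 was left out (3.98, adjusted p 0.0259, edgeR). That fit set the 2 female controls against the 3 male knockouts, so genotype and sex could not be told apart in it.

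Sex was not balanced between the groups. The control with the most Hspa1b was the male one, and with sex as a covariate the log2 fold change was 1.17 (SE 0.69, adjusted p 0.595 in edgeR). All 3 knockouts were male, so this value rests on the 1 male control against them. Replicate 1 of both groups had the most Hspa1b in its group, and also the most stromal and endothelial marker RNA (148 and 166 CPM) and leukocyte marker RNA (97.3 and 71.3 CPM), although knockout replicate 3 was nearly as high in the latter (70.2 CPM). Knockout replicate 2, with 42.8 CPM of stromal and endothelial and 18.0 CPM of leukocyte marker RNA, had more Hspa1b than control replicate 1. The part of these cells in the Hspa1b values was not tested.

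Hspa1a (ENSMUSG00000091971) was less even across the knockouts. It drew 18, 1 and 5 reads in the controls against 53, 10 and 9 in the knockouts, so that only knockout replicate 1 exceeded every control. Its normalised values were 0.567, 0.0411 and 0.182 CPM against 1.42, 0.285 and 0.241 CPM, and the groups overlapped. In GRCm38 it overlaps Gm20481, which was at 0 counts in every library. When strand is ignored, reads in an overlap of exons are assigned to neither gene. Hspa1b overlaps no annotated gene, so the split of reads between Hspa1a and Hspa1b may be affected to a degree not measured. Of the reads placed on either gene, Hspa1b took 50% in control replicate 1 (exact 95% Clopper-Pearson interval 32.9% to 67.1%), 54.7% in knockout replicate 1 (45.2% to 63.9%), 75.6% in knockout replicate 2 (59.7% to 87.6%) and 83.6% in knockout replicate 3 (71.2% to 92.2%). Control replicates 2 and 3 had 2 and 8 such reads, too few for a share. These intervals, too, cover counting error only. Because the genes share many 100-base stretches, and reads placed at several sites were not counted, their separate values are uncertain.

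Taken as 1 gene, a choice made after seeing the data, the pair drew 36, 2 and 8 reads in the controls against 117, 41 and 55 in the knockouts. The values were 1.13, 0.0822 and 0.291 CPM against 3.14, 1.17 and 1.48 CPM, and the lowest knockout lay just above the highest control. The fit of this sum gave a log2 fold change of 1.90 (SE 0.82, 95% interval -0.02 to 3.83, adjusted p 0.304, edgeR). With the replicate block the pair rose by 2.19 (SE 0.44, adjusted p 0.0159, edgeR). Without control replicate 1 the value was 3.30 (adjusted p 0.0461, edgeR), and with sex as a covariate 0.76 (adjusted p 0.765, edgeR). The first of these fits held no male control, and in the second the difference between genotypes rests on the 1 male control. For every 1000 reads on Hspa8, the constitutive relative, the pair had 9.38, 0.808 and 1.43 reads in the controls against 25.2, 9.21 and 8.60 in the knockouts, with overlap. This ratio does not depend on scaling, and its log2 difference of 2.51 gave p = 0.3 in an exact two-sided permutation test, where 0.1 is the smallest value possible with 3 against 3.

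**Figure D2:**
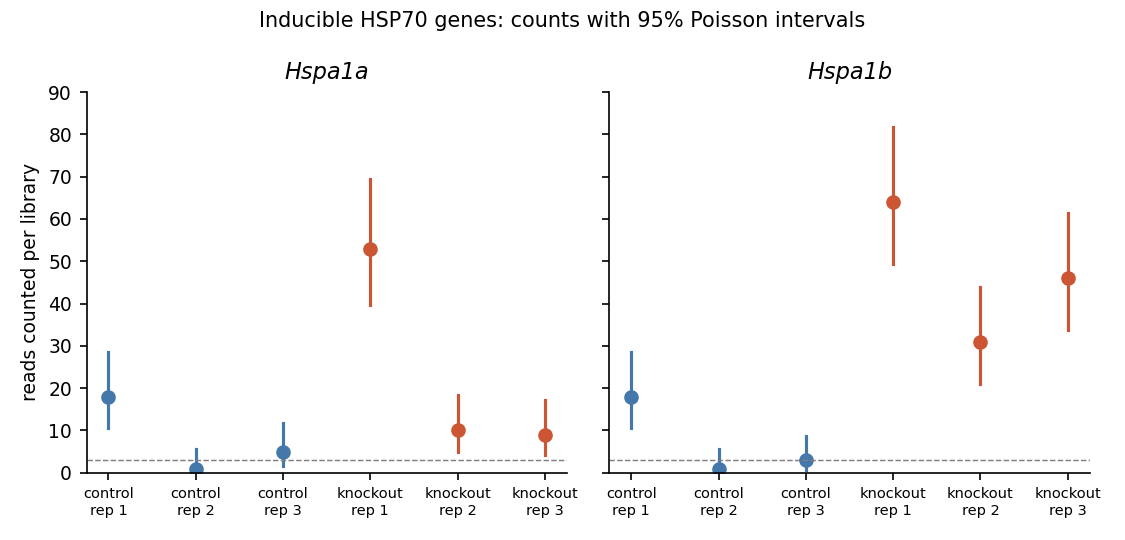
Reads counted on Hspa1a and Hspa1b in each library (points) with exact 95% Poisson intervals (lines); the dashed line marks 3 counts. Hspa1b has 31 to 64 counts in the knockout libraries and 1 to 18 in the controls, whereas Hspa1a exceeds the highest control in knockout replicate 1 alone.

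The HSP70 cochaperones were not called. Hsph1 (ENSMUSG00000029657), the HSP110 exchange factor that reloads HSP70, had 6.61, 7.72 and 7.27 CPM in the controls against 4.53, 5.54 and 4.34 in the knockouts. All knockout libraries lay below all controls, as they did in 10.9% of the genes tested. The log2 fold change was -0.58 (SE 0.16, 95% interval -0.95 to -0.22). The adjusted p was 0.131 in edgeR and 0.0570 with the replicate block, so that Hsph1 was called in neither fit. With library totals it was -0.17. Dnajb1 (ENSMUSG00000005483), the J-domain partner of the inducible HSP70, had 6.74, 5.05 and 7.16 CPM in the controls against 5.68, 5.40 and 4.40 in the knockouts. The groups overlapped, and its log2 fold change of -0.29 had a 95% interval from -0.72 to 0.13 (0.11 with library totals).

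The other inducible genes were not called either. Hspb1 (ENSMUSG00000004951), a small heat shock protein that holds unfolded proteins in soluble complexes, had 14.6, 16.6 and 17.8 CPM in the controls against 14.8, 12.7 and 15.9 in the knockouts. The groups overlapped, with a log2 fold change of -0.18 (95% interval -0.49 to 0.14; 0.25 with library totals). Hsp90aa1 (ENSMUSG00000021270), the inducible HSP90, had 41.3, 40.9 and 36.6 CPM in the controls against 31.7, 35.6 and 37.5 in the knockouts. Its log2 fold change was -0.18 (95% interval -0.48 to 0.12; 0.23 with library totals), with 1 knockout library inside the control range.

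In the constitutive pair the spread within groups exceeded the difference between group means. Hsp90ab1 (ENSMUSG00000023944), the constitutive HSP90, had 134, 131 and 173 CPM in the controls against 152, 121 and 178 in the knockouts. Hspa8 (ENSMUSG00000015656), which folds new chains and strips clathrin from vesicles, had 121, 102 and 203 CPM in the controls against 125, 127 and 172 in the knockouts. Replicate 3 was the highest library of both groups for both genes. Their log2 fold changes were 0.05 (95% interval -0.39 to 0.48) for Hsp90ab1 and -0.01 (-0.62 to 0.61) for Hspa8, and 0.47 and 0.42 with library totals. For every 100 reads on Hsp90ab1 there were 30.9, 31.3 and 21.2 reads on Hsp90aa1 in control and 20.9, 29.4 and 21.0 in knockout. The knockout had the lower ratio in all 3 numbered pairs, with a log2 difference of -0.22, and the exact two-sided permutation test gave p = 0.2.

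A processed copy of Hspa8 divided the libraries in another way. Gm15459 shares 1342 of the 100-base stretches of Hspa8 and was the copy with the most counts among those of the members. It drew 512, 275 and 793 reads in the controls against 659, 25 and 45 in the knockouts. For every 100 reads on Hspa8 this came to 13.3, 11.1 and 14.2 against 14.2, 0.562 and 0.704. Knockout replicate 1 thus lay with the controls, and the lowest of these 4 libraries lay 15.8-fold above the higher of knockout replicates 2 and 3. The groups overlapped (exact two-sided permutation test on the log2 ratio, p = 0.3), and Gm15459 was not called in edgeR (adjusted p 0.660). Hspa8 itself stood at 4450 and 6396 reads in those 2 libraries and at 2474 to 5587 in the other 4. With the counts of annotated copies added to each member, the log2 fold change of Hspa8 was -0.12 and no member was called in edgeR.

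**Figure D3:**
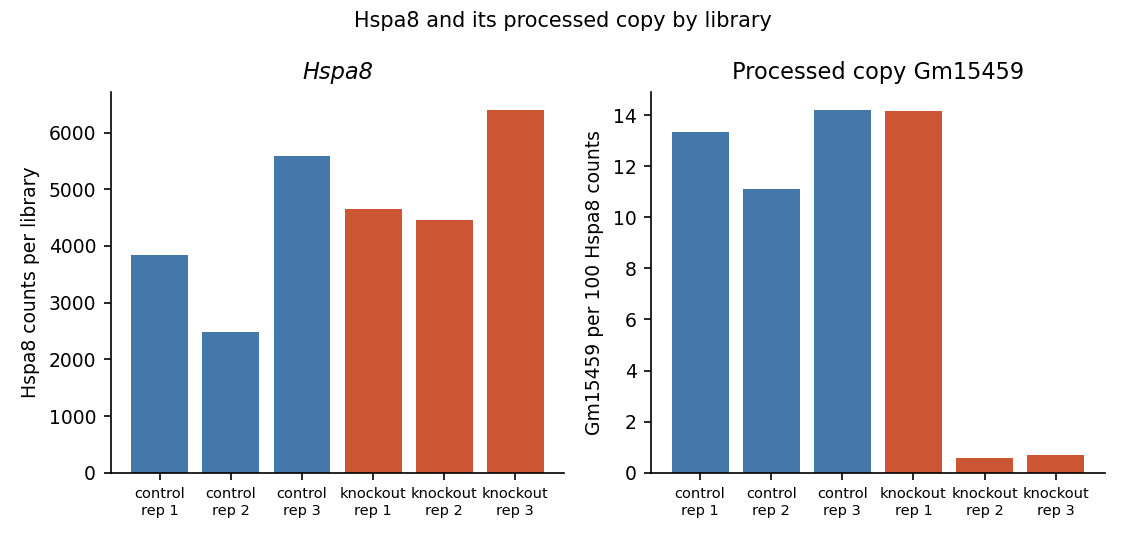
Left, counts on Hspa8 per library; right, counts on its processed copy Gm15459 for every 100 counts on Hspa8 (blue control, orange knockout). The copy stands at 11.1 to 14.2 in the 3 controls and knockout replicate 1 and at 0.562 and 0.704 in knockout replicates 2 and 3.

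The mitochondrial chaperonin genes were not called. Hspd1 (ENSMUSG00000025980), which forms the folding chamber, had 32.3, 33.0 and 32.7 CPM in the controls against 26.8, 29.8 and 36.8 in the knockouts. Hspe1 (ENSMUSG00000073676), its lid, had 16.4, 19.4 and 18.2 CPM in the controls against 15.2, 18.3 and 17.7 in the knockouts. Controls of Hspd1 spanned a narrow range inside that of the knockouts, and those of Hspe1 overlapped with the knockouts. The log2 fold changes were -0.07 (95% interval -0.40 to 0.26) and -0.08 (-0.38 to 0.23), and 0.34 for both with library totals. Hspd1 had 1.97, 1.70 and 1.79 reads for each Hspe1 read in control and 1.77, 1.62 and 2.07 in knockout (exact two-sided permutation test, p = 1). The ratio of the divergent pair, which shares the element printed above, was thus 1.82 ± 0.134 (SD, n = 3) in control and 1.82 ± 0.230 in knockout. The annotated gene models overlap, and reads in the overlap are not assigned when strand is ignored.

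**Figure D4:**
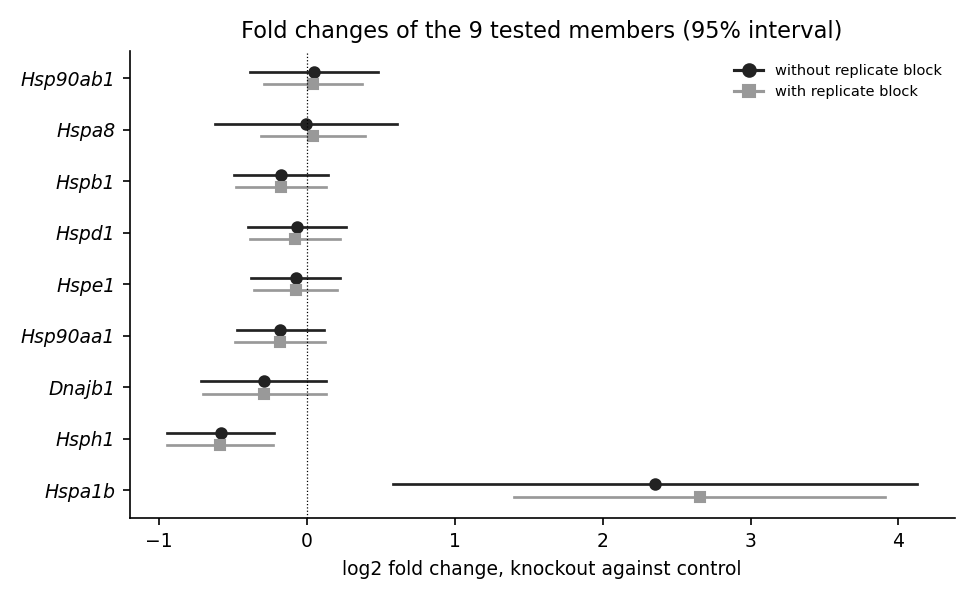
Fitted log2 fold changes (knockout against control, points) of the 9 members tested with their 95% intervals (lines), without (black circles) and with (grey squares) the replicate number as a block. Hspa1b lies at 2.35 and 2.65, Hsph1 at -0.58 and -0.59, and the intervals of the other 7 include 0 in both fits.

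The 10 genes together held 0.0379%, 0.0279% and 0.0401% of gene counts in control and 0.0451%, 0.0399% and 0.0542% in knockout. The knockout was higher in all 3 numbered pairs, and the groups overlapped. The difference was 0.0111 percentage points (exact two-sided permutation test, p = 0.2), and 0.0187 points of the counts outside the acinar markers (p = 0.3, the same exact test), which took a smaller share in knockout.

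The wider chaperone network was read from 10 lists of 102 genes, of which 95 were tested. edgeR and limma-voom called 0 of the 95. DESeq2 called 3 (Bag1 and Cryab lower, Lonp1 higher), against 594 of all 13115 genes tested. In edgeR 20 of the 95 had an unadjusted p under 0.05, or 21.1% against 16.7% of all genes. The median log2 fold change of the 95 was -0.10, with 38 higher and 57 lower. With library totals 81 were higher, the median was 0.32 and edgeR called 13, all higher, against 1519 of all 13115 genes. With the replicate block 3 were called lower and 2 higher, among 5.99% of all genes called in either direction. Cryab, a small heat shock protein and partner of Hspb1, stood at 8.47, 11.2 and 8.91 CPM in the controls against 3.51, 5.71 and 3.38 in the knockouts. Its log2 fold change was -1.18 (SE 0.23, adjusted p 0.0546, edgeR), and it fell by 1.21 on the log2 scale with the block (adjusted p 0.00186 in edgeR). Bag1, an exchange factor that couples HSP70 to the proteasome, stood at 44.9, 55.8 and 46.5 CPM against 34.9, 34.2 and 30.3 CPM, and was called lower with the block (-0.56, adjusted p 0.0379 in edgeR). Hspa13, an HSP70 relative of the endoplasmic reticulum, was called lower in the same fit (-0.65, adjusted p 0.0294). In these 3 genes all knockout libraries lay below all controls, as they did in 10.9% of the genes tested.

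The 2 genes called higher with the block were Hsf1 and Lonp1. Hsf1, the transcription factor that drives the inducible members, stood at 6.74, 7.72 and 5.96 CPM in the controls against 9.84, 11.0 and 8.82 in the knockouts. All knockout libraries lay above all controls, as they did in 12.0% of the genes tested. The log2 fold change was 0.54 (SE 0.15), and the adjusted p was 0.142 in edgeR and 0.0491 with the block. Lonp1, the ATP-driven protease of the mitochondrial matrix, stood at 24.9 to 25.3 CPM in the controls against 36.8, 34.9 and 33.7 in the knockouts (log2 fold change 0.49, SE 0.12, adjusted p 0.0948 in edgeR and 0.0491 with the block). With library totals the log2 fold changes of these 5 genes were -0.76 for Cryab, -0.14 for Bag1, -0.27 for Hspa13, 0.95 for Hsf1 and 0.90 for Lonp1, and Hsf1 and Lonp1 were among the genes called.

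By role, the lists had few or no calls, and the directions given hold for TMM scaling. Among 17 J-domain cochaperones 8 were higher and 9 lower with none called in either fit, from Dnajb5 at -0.52 to Dnajc7 at 0.37 (log2 fold changes, as are all values in this paragraph). Of 17 HSP90 cochaperones 12 were lower, with Fkbp5 at -0.76, Stub1 at -0.70 and Unc45a at 0.46, and of 14 subunits of the chaperonin TRiC and prefoldin 9 were lower, from Cct4 at -0.30 to Pfdn6 at 0.52. Neither list had a call in either fit. Among 8 relatives of HSP70 and HSP110, 4 were higher and 4 lower, and Hspa13 alone was called with the block. Exchange factors were lower in 5 of 7, with Bag5 at -0.53 beside Bag1, whereas Bag6 stood at 0.38. Of 3 small heat shock proteins tested among 8 listed, Hspb6 stood at 0.52 and Hspb8 at -0.45 beside Cryab. The mitochondrial list held 7 higher and 8 lower of 15, from Hscb at -0.81 to Lonp1 at 0.49. Of 4 genes tested among 5 heat shock factors and regulators, Hsbp1 stood at -0.28 and Hsf2 at -0.29, and Hsf5 was at 0 counts in every library. Of 16 further stress-inducible heat shock factor targets 12 were lower, with a median of -0.21, from Cryab to Serpinh1 at 0.31, and Cryab was the 1 called with the block. The relatives of the endoplasmic reticulum, with Dnajb9 at -0.49, Hspa5 at -0.32 and Hyou1 at 0.25, had 6 of 7 lower and no call in either fit.

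Immediate-early genes, which cells switch on within minutes of a stimulus, differed between preparations within groups. Their summed level was 857, 160 and 723 CPM in the controls against 775, 228 and 1134 in the knockouts. It was lowest in replicate 2 of both groups, as Hspa1a plus Hspa1b were in CPM. Both were highest in replicate 1 of the controls. In the knockouts the immediate-early sum was highest in replicate 3, whereas Hspa1a plus Hspa1b were highest in replicate 1. The groups overlapped, and 0 of 18 genes were called by edgeR, DESeq2 or limma-voom, with 0 at an unadjusted p under 0.05 in edgeR and 15 higher (median log2 fold change 0.38). With the block, which called 5.99% of all genes, Myc alone of the 18 was called higher (0.52, adjusted p 0.0440 in edgeR). Whether these genes bear on the Hspa1b values was not tested.

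**Figure D5:**
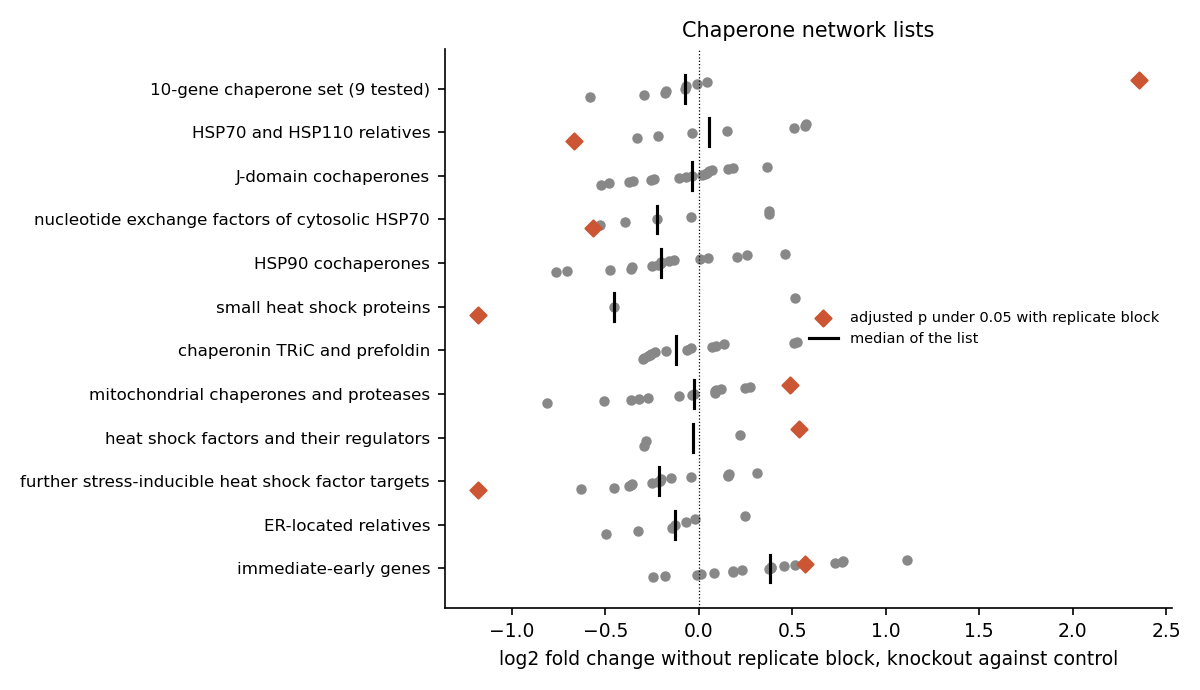
Log2 fold changes (knockout against control) of the genes tested in each list (points, lists in rows), with the median of each list (black line) and genes called with the replicate block (orange diamonds). Hspa1b lies farthest to the right at 2.35 and Cryab farthest to the left at -1.18, and the list medians lie between -0.45 for small heat shock proteins and 0.38 for immediate-early genes.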

How the data were processed

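Per the labels, total RNA was extracted with Trizol, enriched for poly-A RNA and sequenced on Illumina instruments. The authors deposited raw counts per gene, of which the unstranded column was used here, and the submitters' processing notes name STAR 2.7.10a and the build GRCm39 (mm39). The annotation release and read length are not given in the sources used here. Rows that name no gene stayed out of library sizes and tests. They held 43.5% to 45.7% of all reads in control and 36.9% to 41.1% in knockout. Reads placed at several sites alone were 26.0% to 28.4% in control and 21.6% to 24.1% in knockout. Unmapped reads were 12.8% to 13.0% and 9.70% to 11.4%, and mapped reads outside annotated genes 0.893% to 1.32% and 1.90% to 2.18%. None of these ranges overlapped between the groups, and their bearing on the members was not tested.

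Symbols, gene classes and exonic lengths came from GENCODE M21 and promoter sequence from RefSeq, both on GRCm38, and 52081 of 55414 identifiers (94.0%) had a symbol. Genes passing filterByExpr were tested with edgeR 4.0.16 in R 4.3.3 (TMM factors, robust quasi-likelihood F test, Benjamini-Hochberg adjustment over all genes tested, called under 0.05). Standard errors are the log2 fold change over the square root of F. limma 3.58.1 (voom) and DESeq2 1.42.0 were alternatives, as were other scalings, count filters, strand columns, sex as a covariate and leaving out each library. The test was checked on simulated data. Ratios within a library were compared with exact permutation tests.

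Titles give replicates 1 to 3 in each genotype. Deviations from the group means correlated at 0.285 to 0.630 in same-numbered pairs and at -0.496 to 0.210 in others. Since every same-numbered pair exceeded 0.1, a fit with the number as a block is given where it changed a call. Control replicate 3 with knockout replicate 2 (0.210) also exceeded 0.1. The labels do not say that same-numbered preparations belong together, and these correlations come from the data that the block was used to test. Calls made only with the block rest on this unstated pairing. It called 785 genes against 124.

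The members and lists were chosen with earlier results of these data known. All members are named, and from each list the genes called in either fit and otherwise up to 4 genes (the 2 largest and 2 smallest fold changes). Shared stretches, copies and the sum of Hspa1a and Hspa1b were examined after seeing the data.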

Additional observations from a re-analysis of the deposited data

How the results depend on the processing

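Hspa1b kept its direction in every alternative that tested it, with log2 fold changes from 1.17 (sex covariate) to 3.98 (without control replicate 1), and Hsph1 did so from -0.70 to -0.17. The number of members called (0) was 1, Hspa1b, without a filter on low counts, with the replicate block (also without replicate 1 or 3, but 0 without replicate 2) and without control replicate 1, and 0 to 1 when 1 library was left out. The block changed no other call among the members. The genes called (124) were 1519 with library totals, 594 with DESeq2, 850 without a filter, 210 where each library had at least 10, 21 with sex, 785 with the replicate block (396, 100 and 832 without replicates 1, 2 and 3), and 20 to 461 when 1 library was left out, 20 without control replicate 2, 54 without control replicate 3, 27 and 24 without knockout replicates 1 and 3 and 461 without control replicate 1. Without control replicate 1, the male control, all controls were female and all knockouts male. With sex as a covariate, the difference between genotypes rests on that 1 male control. The causes were not tested.

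Members near 0 changed sign, none of them called. With library totals the log2 fold changes were 0.11 for Dnajb1, 0.23 for Hsp90aa1, 0.42 for Hspa8, 0.25 for Hspb1, 0.34 for Hspd1 and 0.34 for Hspe1. Hspa8 was 0.0069 with upper-quartile factors, 0.0418 with limma-voom, 0.0111 with at least 10 counts, 0.0134 with forward-strand counts, 0.0403 with the replicate block (0.0183 and 0.18 without replicates 1 and 3) and 0.22 with sex, and Hspe1 was 0.0572 with sex. Hsp90ab1 was -0.0501 with the block without replicate 1. Leaving out 1 library gave -0.20 to 0.34 for Hspa8, -0.096 to 0.187 for Hsp90ab1, -0.208 to 0.0264 for Hspd1 and -0.164 to 0.0019 for Hspe1. The log2 ratio of Hspd1 to Hspe1 (-0.0043) was 0.11 with forward-strand counts and -0.101 to 0.0748 when 1 library was left out. Depth limits Hspa1a and Hspa1b, which drew 2 reads together in control replicate 2.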

Other observations

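Across the 6 libraries, the 6 protein-coding genes of 12101 whose log2 CPM was most like that of Hspa1a plus Hspa1b were Dcp2 (Pearson r 0.997), Ctso (0.995), Tspan15 (0.994), Vamp5 (0.993), Slc26a7 (0.990) and Mysm1 (0.990). These are descriptions over 6 libraries that share depth and scaling. Dcp2, an mRNA decapping enzyme, stood at 3.50, 2.30 and 2.84 CPM in the controls against 3.94, 3.54 and 3.65 in the knockouts, and Mysm1, a histone deubiquitinase, at 8.10, 5.67 and 7.12 CPM and 9.54, 8.65 and 8.66 CPM. None of the 6 was called in edgeR, with adjusted p from 0.222 for Slc26a7 to 0.454 for Vamp5.

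Hspa1l, the relative of Hspa1a known from the testis, drew 1, 0 and 1 reads in the controls against 5, 10 and 2 in the knockouts, too few to pass the filter. Among the members, Hspa8 and Hsp90ab1 had the highest positive correlation over the 6 libraries (Pearson r 0.82, n = 6, a description), followed by Hspa1a and Hspa1b (0.80). The strongest negative values were -0.97 for Hspa1a with Hspe1 and -0.92 for Hspa1b with Hsph1.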
